A study of Mus musculus with 18 samples.

Results

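Bone marrow-derived macrophages treated with IL-4 plus IL-13 were compared with macrophages kept in M-CSF alone, across all genes expressed in the cells. The comparison used 12 of the 18 libraries of the series, taken by their titles: 6 of the IL4_IL13 group and 6 of the Control group. Marrow cells of male C57BL/6 mice were matured for 7 days with M-CSF at 50 ng/ml, the growth factor that drives and sustains the macrophage lineage. Both groups were then held for 24 h in M-CSF at 10 ng/ml. For the IL4_IL13 group, IL-4 and IL-13 were present too, each at 10 ng/ml, while Control cells had no other cytokine. M-CSF is thus common to both groups, and the contrast shows what the pair of cytokines added to it; neither cytokine was given alone, so their shares cannot be told apart. The remaining 6 libraries, which also received TNFa, had no part in the contrast itself. They entered the filter on low counts, the scaling between libraries and the estimate of the spread between libraries. Nothing in the labels tells whether each library had its own mouse or dish. The p-values therefore reflect how far these libraries differ, and that spread may be technical.

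IL-4 and IL-13 are cytokines of type 2 immunity, made in allergy, worm infection and tissue repair. Both signal through receptors that contain the IL-4 receptor alpha chain: Janus kinases phosphorylate the transcription factor STAT6, which dimerises and binds gapped palindromes in DNA. In macrophages the outcome is known as alternative activation, a state that makes arginase, chitinase-like proteins and sugar-binding receptors and that can end in fusion into giant cells.

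Total counts ranged from 15744544 to 19309743 in Control and from 14793404 to 20056125 in IL4_IL13. All 12 macrophage markers checked, such as Adgre1 and Csf1r, were present in every library. Of these 12, 9 were called lower and 2 higher, against 29.7% and 29.3% of all genes. Their summed level was 16816 to 29504 CPM in Control and 11743 to 14046 CPM in IL4_IL13. Of the markers of other cells, 8 of 8 for mast cells and basophils, 9 of 10 for neutrophils, 8 of 9 for T and NK cells, 7 of 8 for the erythroid and megakaryocyte lineages, 6 of 8 for dendritic cells, 4 of 6 for eosinophils, 4 of 8 for B cells, 3 of 6 for endothelium and 3 of 10 for stroma stayed under 1 CPM (counts scaled to library size) in all 12 libraries. Summed B cell markers reached at most 4.9 CPM. Summed endothelial markers, Vwf included, were 31.6 to 59.1 CPM in Control and 156 to 323 CPM in IL4_IL13. Vwf made up most of this sum, with medians of 33.6 CPM in Control and 236 CPM in IL4_IL13. Kdr went the other way, from a median of 7.05 CPM to 1.08 CPM, and Cdh5 reached at most 3.13 CPM. Summed stromal markers ran from 19.8 to 635 CPM in Control and from 59.2 to 575 CPM in IL4_IL13, and none of 7 tested members was called. The collagen chains Col1a1 and Col1a2 were the most abundant of them, at up to 301 and 203 CPM, while Dcn, Lum and Thy1 stayed under 1 CPM.

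Control replicate 1 stood apart from the other libraries. It deviated more than 2-fold from its 5 fellow controls in 1836 genes, where the 11 remaining libraries, each set against its own group, did so in 89 to 393. Its summed stromal markers were 19.8 CPM, the lowest of all, and its DNA replication genes were the highest of the controls. On a principal component analysis of the 12 libraries, the first component held 65.5% of the variance and separated the groups, and the second, with 17.3%, placed Control replicate 1 at 70.2 and IL4_IL13 replicate 1 at 26.1 with the other 10 libraries between -21.6 and 2.45. Counts and fold changes without that library are given beside many of the results below.

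Of 13177 genes tested, 7774 were called (edgeR's quasi-likelihood test, Benjamini-Hochberg adjusted p under 0.05), which is 59.0% of all genes. Of these, 3865 (29.3% of all genes) rose and 3909 (29.7%) fell. Most of these changes were small: 4394 of the called genes changed by less than 1.5-fold. At least 2-fold, 749 genes rose (5.68%) and 882 fell (6.69%). Among the largest changes, 71 genes rose at least 16-fold (0.539%) and 11 fell by as much (0.0835%). Groups that did not overlap, with all 6 libraries of one group above all 6 of the other, were found for 1642 higher genes (12.5%) and 1870 lower genes (14.2%). The median log2 fold change over all genes was -0.0024. The counts of gene groups below are read against these shares. Ranges are over the 6 libraries of a group in CPM, and the ± after a log2 fold change (IL4_IL13 over Control) is an approximate standard error from the same test.

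**Figure D1:**
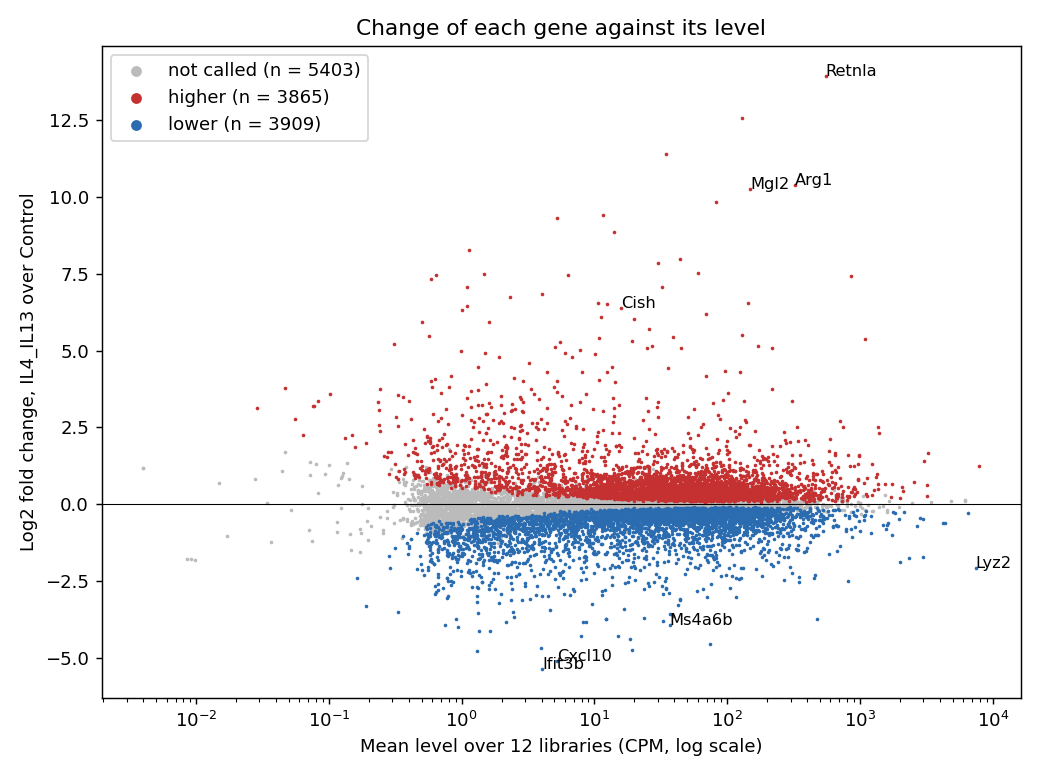
Log2 fold change of IL4_IL13 over Control (vertical axis) against the mean level over the 12 libraries in CPM (horizontal axis, log scale) for the 13177 genes tested. Called genes are coloured, red higher and blue lower, and grey points are genes not called; Retnla lies highest at 13.93 and Ifit3b lowest at -5.33.

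Without Control replicate 1, 9081 genes were called, 4741 higher and 4340 lower, and the number at least 2-fold higher went from 749 to 1021. Libraries with the same replicate number deviated together from their group means, with correlations of 0.131 to 0.671 in 6 of 6 numbers. In 5 of 6 numbers the 2 libraries were each other's closest match across the groups. Number 4, with the correlation of 0.131, was the exception. With the replicate number as a block, 8632 genes were called.

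Among genes of the IL-4 and IL-13 signalling route, the feedback genes showed the largest rises: Cish went from a median of 0.361 CPM (0.192 to 0.637) to 32.3 CPM (23.7 to 37), Socs1 from a median of 1.49 CPM (1.05 to 1.82) to 45.9 CPM (43.4 to 57.9) and Socs2 from a median of 1.11 CPM (0.803 to 1.64) to 26.9 CPM (18.2 to 32.6). All IL4_IL13 libraries lay above all controls for these 3 genes, whose products bind cytokine receptors or Janus kinases and damp their signal. Their log2 fold changes were 6.38 ± 0.16, 5.09 ± 0.12 and 4.46 ± 0.17. Socs3, the relative linked to signalling through gp130 and STAT3, fell instead (log2 fold change -1.51). Il4ra, the receptor chain that IL-4 and IL-13 share, fell from a median of 134 CPM (106 to 137) to 57.2 CPM (49.1 to 63.8), with no overlap between the groups (log2 fold change -1.16 ± 0.07, adjusted p = 5.34e-11). Its partner for IL-13, Il13ra1, fell from a median of 13.1 CPM (9.58 to 15.4) to 4.0 CPM (3.04 to 5.09). Stat6 was at 318 to 339.6 (median 337) CPM in Control and 278 to 301 (median 290.4) CPM in IL4_IL13. That is a fall of 1.14-fold, small but past the threshold (log2 fold change -0.19 ± 0.03, adjusted p = 1.12e-04). Jak1 did not pass (adjusted p = 0.83), with 254 to 315 (median 303) CPM against 275 to 318 (median 288) CPM. Irs2, an adaptor that docks on the IL-4 receptor, rose 2.74-fold, and Stat2, the interferon signal transducer, fell 1.92-fold. In the list of 26 tested receptor and JAK-STAT genes 10 rose and 10 fell, 6 and 3 of them at least 2-fold; without Control replicate 1, 10 rose and 13 fell.

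**Figure D2:**
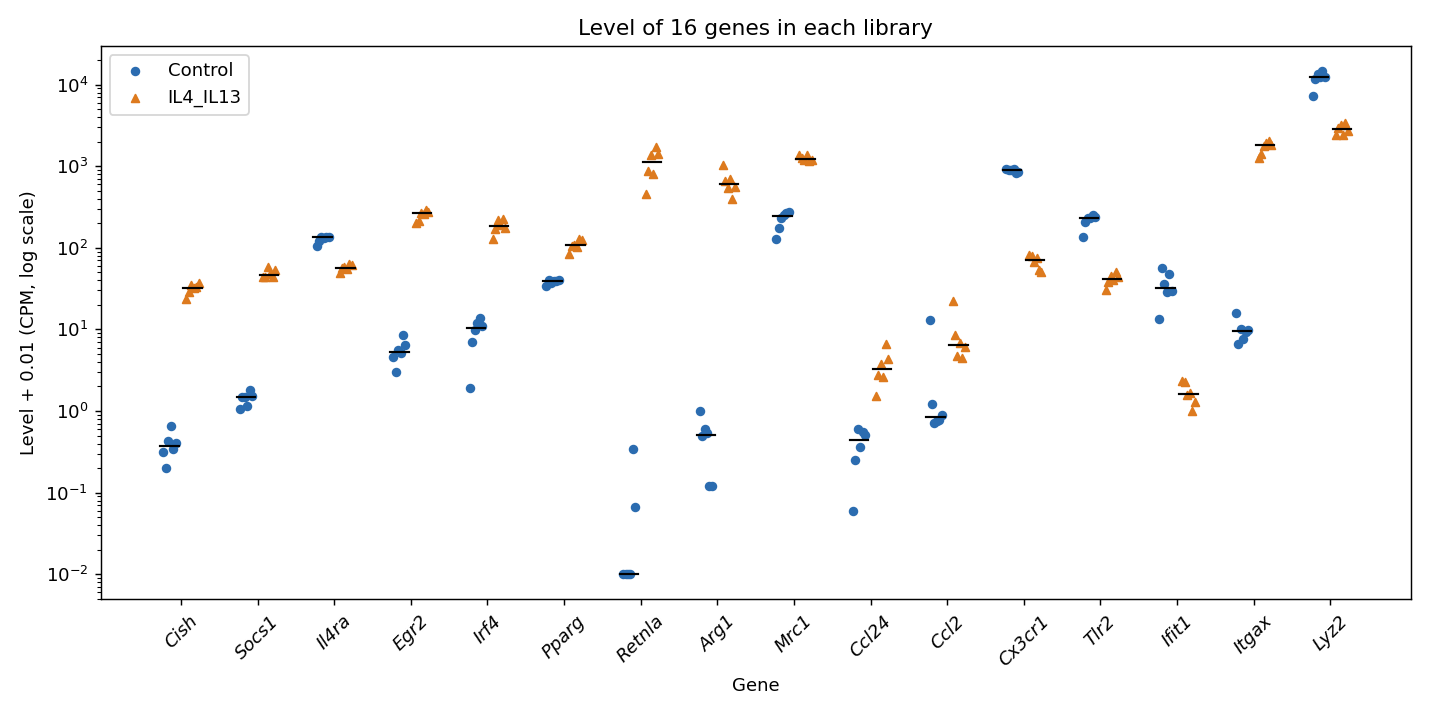
Level in CPM (vertical axis, log scale with 0.01 added to each value) of 16 genes in each of the 12 libraries; blue circles are Control, orange triangles IL4_IL13 and the bars mark the medians. Socs1, Irf4, Mrc1 and Pparg lie higher in all 6 IL4_IL13 libraries, Il4ra, Cx3cr1 and Tlr2 lie lower, and the groups of Ccl2 overlap.

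Transcription regulators of the myeloid lineage changed in both directions: 23 of 44 tested members rose and 12 fell, 13 and 6 of them at least 2-fold, and their median log2 fold change was 0.37. Egr2, an early growth response factor that serves as a marker of alternative activation, rose from a median of 5.33 CPM (2.98 to 8.6) to 264 CPM (200.1 to 289). Irf4, the interferon regulatory factor required for much of the type 2 programme in macrophages, rose from a median of 10.5 CPM (1.91 to 13.7) to 182 CPM (128 to 227). Batf3, a leucine zipper factor best known from dendritic cells, and the repressor gene Bhlhe40 rose by 5.69 ± 0.22 and 4.31 ± 0.18 on the log2 scale. Klf4 rose from a median of 37.2 CPM (33.7 to 40.1) to 191 CPM (182 to 205), the groups far apart and each narrow. Pparg, the fatty acid-sensing nuclear receptor, rose 2.82-fold and its coactivator Ppargc1b 9.36-fold. Going the other way, Irf7, which drives interferon production, fell from a median of 50.1 CPM (33.3 to 95.4) to 7.47 CPM (5.88 to 14.5). Maf, a factor of resident-type macrophages, fell from a median of 625 CPM (416 to 661) to 101 CPM (89.1 to 115), while Zeb2 (adjusted p = 0.31) did not pass. Egr3 fell 4.78-fold where Egr2 rose 45.4-fold, and Nr4a1, an early response nuclear receptor, fell 3.69-fold. Myc rose from a median of 11.9 CPM (8.43 to 59.5) to 86.4 CPM (80.9 to 93.7); its log2 fold change was 2.16 ± 0.36, and 2.94 without Control replicate 1.

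Effector genes of type 2 immunity showed large rises. Of 20 tested genes of this list 17 rose and 1 (Il10) fell, and the median log2 fold change was 5.08; 6 more were below the filter on low counts. Retnla, the secreted protein also called Fizz1 or Relm-alpha, had 0 to 0.331 (median 0) CPM in Control and 461 to 1705 (median 1121) CPM in IL4_IL13. Controls thus held 7 counts in all, and the groups did not overlap, with a ratio of 16943 (95% counting interval 8223 to 42142). Its log2 fold change was 13.93, and 15.89 without Control replicate 5. Rnase2a, a ribonuclease of the eosinophil-associated family, ran from a median of 0.0241 CPM (0 to 0.11) to 266 CPM (191 to 328), from 4 counts over the controls to 26823, a ratio of 7066 (2759 to 25933). Its relative Ear2 had 2 counts in Control and 7088 in IL4_IL13. Chil3, the chitinase-like protein Ym1, rose from a median of 0.167 CPM (0 to 0.337) to 166 CPM (116 to 201), and Arg1, the enzyme that splits arginine into ornithine and urea, from a median of 0.501 CPM (0.11 to 1.0) to 607 CPM (391 to 1036). Il10, an anti-inflammatory cytokine, fell from a median of 2.04 CPM (1.3 to 2.96) to 0.561 CPM (0.308 to 0.914). Tgfb1 did not pass (adjusted p = 0.0752), though it did with the block (adjusted p = 0.00373) and without Control replicate 5 or IL4_IL13 replicate 1. Reads of the ribonuclease and chitinase-like families may be split among close relatives, so the value of a single member is uncertain.

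Promoter windows were searched for gapped palindromes of the kind that STAT proteins bind. Whether such sites act on any of the genes was not tested. RefSeq windows of GRCm38.p6, from 250 bases before to 50 after each annotated start, were found for 9759 of the genes tested, 12458 windows in all. The STAT6-type palindrome TTCNNNNGAA, which reads the same on both strands, was present in 698 windows (5.60%). Among genes at least 4-fold higher it was in 20 of 221 windows (9.05%), among those at least 16-fold higher in 8 of 69 (11.6%), and in the effector list in 5 of 19 (26.3%); genes not called had it in 5.75% and genes at least 4-fold lower in 5.26%. The interferon-stimulated genes, nearly all of which fell, had it in 7 of 41 windows (17.1%). The shorter palindrome TTCNNNGAA, bound by most STAT proteins, was in 6.83% of all windows. Its share was 7.69% for genes at least 4-fold higher, 11.6% at least 16-fold higher, 9.36% at least 4-fold lower and 12.2% in the interferon list. These are descriptions of letters in a short window, without a test, and most of the strongly raised genes held neither. Rnase2a, Ear2, Chil3, Mgl2, Socs1, Irf4 and Egr2 had no STAT6-type match, and Arg1, Ccl24 and Socs2 had no window. Tmem26, which also rose, held the STAT6-type palindrome but is not printed. The 4 stretches below, each ending before the start site and written 5′ to 3′ on the gene's strand with the STAT6-type match in capitals, belong to genes with a large rise.
Retnla, chr16:48842439-48842498, plus strand: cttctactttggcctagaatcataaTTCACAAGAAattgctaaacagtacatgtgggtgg
Ccl17, chr8:94810274-94810333, plus strand: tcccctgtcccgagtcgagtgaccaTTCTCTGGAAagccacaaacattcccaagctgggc
Itgax, chr7:128129398-128129457, plus strand: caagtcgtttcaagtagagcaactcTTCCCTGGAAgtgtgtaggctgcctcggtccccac
Pdcd1lg2, chr19:29410812-29410871, plus strand: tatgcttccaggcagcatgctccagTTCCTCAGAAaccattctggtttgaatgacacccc
The matches began 145, 154, 127 and 82 bases before the start. The log2 fold changes of these genes were 13.93 (15.89 without Control replicate 5), 5.93 (7.08 without Control replicate 4), 7.42 and 7.47.

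Among lectin receptors, which bind sugars on microbes and host proteins, 9 of 22 tested members rose and 12 fell, and 8 and 9 of these changed at least 2-fold. Mgl2, a galactose-binding lectin, rose from a median of 0.196 CPM (0.0502 to 0.503) to 296 CPM (256 to 334), the mannose receptor Mrc1 from a median of 243 CPM (127 to 275) to 1233 CPM (1151 to 1387), and the beta-glucan receptor Clec7a (Dectin-1) 5.77-fold. The Dectin-2 family members fell, with Clec4n (Dectin-2) 6.74-fold, Clec4e (Mincle) 5.83-fold and Clec4d 5.01-fold lower. Lectins of both directions therefore sat in the same list, and its median log2 fold change was -0.56. Fc receptors, which bind antibodies, gave 1 rise and 4 falls among 8 tested. The inhibitory receptor Fcgr2b rose from a median of 41.9 CPM (16.7 to 51.6) to 243 CPM (191 to 272), and the activating high-affinity receptor Fcgr1 fell from a median of 133 CPM (88.6 to 159) to 21.8 CPM (17.8 to 25). Fcgr4 and the shared signalling chain Fcer1g fell 2.71- and 1.27-fold, and Fcgr3 was not called (adjusted p = 0.215) unless the replicate number was a block (adjusted p = 0.0391). Fcrl1, an Fc receptor-like gene known from B cells, fell from a median of 16.2 CPM (14.8 to 17.6) to 1.12 CPM (1.06 to 1.25).

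Among Siglecs, the receptors of sialic acid, 2 of 6 tested members rose and 3 fell, and among CD300, CD200 and other paired receptors 6 of 19 rose and 10 fell. Siglecf, a sialic acid receptor known from eosinophils and alveolar macrophages, rose from a median of 1.27 CPM (0.71 to 1.56) to 19.9 CPM (19.2 to 23.1), while Siglece fell 10.8-fold and Siglec1 2.68-fold. Of the other eosinophil markers, Ccr3 was the single further one tested, and it rose 1.44-fold; that call was lost without any of Control replicates 1 and 2 and IL4_IL13 replicates 3, 4 and 6. Cd300ld rose 4.1-fold and Cd200r1, a restraining receptor, 2.42-fold, whereas Pilra, Pilrb1 and Pilrb2 fell 5.25-, 9.27- and 11.2-fold. In the MS4A family of tetraspanning membrane proteins 8 of 10 tested members fell at least 2-fold, led by Ms4a6b, which went from a median of 74.3 CPM (25.1 to 95) to 4.5 CPM (2.96 to 6.41), and 1 rose, Ms4a6d at 1.47-fold. In 2 of the 10 all treated libraries lay below all controls, against 14.2% of all genes. The summed levels overlapped, at 364 to 1467 CPM in Control and 370 to 596 CPM in IL4_IL13. Control replicate 1, at 364 CPM, lay below the other controls in this family by a median log2 difference of -2.13. The part of Control replicate 1 in the result was not tested, but without it the number of falls was 9.

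Uptake receptors for lipids and dying cells mostly fell: 7 of 22 tested members rose and 12 fell. The exceptions included Cd36, the fatty acid and oxidised lipoprotein receptor, which rose from a median of 331 CPM (304 to 770.3) to 2173 CPM (1929 to 2923), and Olr1, another oxidised lipoprotein receptor, at 8.95-fold. Stab1 fell from a median of 3369 CPM (2184 to 3707) to 845 CPM (749.8 to 968). Mertk, a kinase receptor for apoptotic cells, and its bridging ligand Gas6 fell together, 3.41- and 3.11-fold, with no overlap between the groups for either. Msr1 did not pass (adjusted p = 0.538). Among 16 tested complement genes 8 fell and 3 rose. Cd93, C5ar1 and C5ar2 were 4.94-, 2.85- and 2.57-fold lower, whereas Itgax, a chain of complement receptor 4, showed the largest rise of the list (log2 fold change 7.42). C1qb did not pass (adjusted p = 0.0542), though it did with the block (adjusted p = 5.50e-04) and without Control replicate 1 or IL4_IL13 replicates 5 or 6.

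Purinergic and lipid-sensing receptors were among the most reduced groups, with 19 of 33 tested members lower, 13 of these at least 2-fold, and 5 higher. P2ry13, an ADP receptor, fell from a median of 15.3 CPM (10.1 to 18.4) to 0.929 CPM (0.539 to 1.66), the orphan receptor Gpr162 from a median of 17 CPM (2.51 to 21.2) to 0.768 CPM (0.144 to 1.32), and Adgre4, an adhesion receptor related to F4/80, 19.5-fold. Hcar2, the receptor for niacin and ketone bodies, went from 195 counts over the controls to 11, a ratio of 16.8 (95% counting interval 9.20 to 34.3). Against this trend the ADP receptor P2ry1 rose from a median of 14.8 CPM (11.6 to 16.6) to 143 CPM (134 to 149) and the adenosine receptor Adora2b 5.84-fold. Ffar4, a receptor for long-chain fatty acids, rose from 11 counts to 136. Among channels, the potassium channel Kcnj10 fell from a median of 67.2 CPM (17.1 to 80.6) to 4.29 CPM (3.32 to 5.62) and the proton channel Hvcn1 rose 3.41-fold.

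Chemokines of type 2 inflammation rose from near silence while several inflammatory ones fell. Of 19 tested chemokines 7 rose and 9 fell, 7 and 6 of them at least 2-fold. Ccl24, which attracts eosinophils, went from a median of 0.426 CPM (0.0502 to 0.592) to 3.27 CPM (1.54 to 6.54). Ccl22, a ligand of the T cell receptor CCR4, rose from a median of 0.45 CPM (0.192 to 0.769) to 6.23 CPM (2.85 to 9.38). Ccl17, its partner ligand, had 1 count in Control and 104 in IL4_IL13, and its fitted log2 fold change was 5.93, and 7.08 without Control replicate 4. The monocyte attractants Ccl2 and Ccl7 were also called higher but spread widely. Ccl2 ran from a median of 0.833 CPM (0.71 to 13) to 6.44 CPM (4.43 to 22.4), and the groups overlapped. Its log2 fold change was 1.60 with all libraries (adjusted p = 0.0448), and 3.34 without Control replicate 1. The call with all libraries was lost without any of Control replicates 2 to 6 and IL4_IL13 replicates 1, 2 and 4. Ccl7 rose from a median of 0.337 CPM (0.168 to 1.51) to 4.1 CPM (2.34 to 12.8), with a log2 fold change of 3.32 and 4.04 without Control replicate 1. Cxcl16 fell 3.24-fold, the platelet factor gene Pf4 2.86-fold and the interferon-induced Cxcl10 34-fold. Cxcl2 fell, with overlapping groups (log2 fold change -2.09, and -3.09 without IL4_IL13 replicate 1).

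Cx3cr1, the fractalkine receptor of patrolling and tissue macrophages, fell from a median of 899.6 CPM (825 to 936) to 71.2 CPM (50.4 to 80.9). Cxcr3 fell 7.46-fold, Cxcr4 2.93-fold, and Ccr1 rose 2.64-fold. Cxcr2, a receptor known mainly from neutrophils, went from 4 counts in Control to 482 in IL4_IL13, a ratio of 127 (95% counting interval 49.3 to 467.9); its fitted log2 fold change was 6.73, and 7.33 without Control replicate 4. The other 9 neutrophil markers, S100a8 among them, stayed under 1 CPM in all 12 libraries. Ccr2 did not pass (adjusted p = 0.704). Il31ra, a chain of the receptor for the itch cytokine IL-31, rose from a median of 0 CPM (0 to 0.276) to 27.2 CPM (24.4 to 34.2), by 8.83 on the log2 scale, and 10.59 without Control replicate 5. Il27ra and the shared chain Il6st rose 19.8- and 2.57-fold, while Il17ra, Tgfbr2 and Ifnar2 fell 3.26-, 2.43- and 2.01-fold. Of the TNF and IL-1 receptor list 11 of 20 rose and 4 fell. Il1rl1, the IL-33 receptor ST2, went from a median of 2.57 CPM (2.04 to 2.96) to 83 CPM (76.6 to 110.1), Il1rl2, the IL-36 receptor, from a median of 0.65 CPM (0.251 to 1.18) to 19.1 CPM (13.9 to 24.9), and Il1r1 and Il18rap rose 5.33- and 4.22-fold. Tnfrsf1a was not called (adjusted p = 0.576).

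Lipid mediator genes changed at both synthesis and reception. Alox5, the first enzyme of leukotriene synthesis, fell from a median of 61.1 CPM (51.3 to 67.7) to 8.52 CPM (6.9 to 11.6), and Hpgds, the prostaglandin D2 synthase, from a median of 387 CPM (290.0 to 413) to 104 CPM (86.3 to 122). Hpgd, which inactivates prostaglandins, fell 5.11-fold. The prostacyclin receptor Ptgir rose from a median of 5.72 CPM (3.59 to 7.98) to 52 CPM (43.3 to 66.3) and the prostaglandin E2 receptor Ptger2 3.21-fold, whereas Ptger3 fell 3.41-fold. Ltb4r1, the leukotriene B4 receptor, rose from a median of 1.43 CPM (0.402 to 1.57) to 11.3 CPM (10.1 to 16.6). Alox15, the lipoxygenase often taken as a marker of IL-4 in human monocytes, did not reach the filter on low counts.

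Coagulation genes included some of the large rises. F10 and F7, which encode clotting factors X and VII, lie side by side on chromosome 8 (chromosome 8 from 13026034 to 13035809 for F7, chromosome 8 from 13037308 to 13056676 for F10, GRCm38). F10 rose from a median of 0.351 CPM (0.165 to 1.15) to 64.7 CPM (43.3 to 84.7) and F7 from a median of 0.229 CPM (0 to 0.464) to 21.6 CPM (16 to 24.6), with log2 fold changes of 7.06 ± 0.26 and 6.56 ± 0.31. Vwf, the platelet-binding factor known from endothelium, rose from a median of 33.6 CPM (23 to 48.9) to 236 CPM (154 to 322). Of 3 tested endothelial markers, Vwf included, 1 rose, 1 fell and 1 was not called. F13a1, the fibrin-crosslinking transglutaminase chain, fell from a median of 44.4 CPM (23.5 to 66.7) to 3.53 CPM (2.2 to 4.3). In this list 11 of 18 tested members rose and 3 fell. Plau, a plasminogen activator, was not called (adjusted p = 0.213); without Control replicate 1 it was called in the other direction, from a log2 fold change of -0.89 to 0.80.

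Among matrix enzymes, Mmp12, the macrophage elastase, rose from a median of 51.3 CPM (28.7 to 80.8) to 2153 CPM (1863 to 2401) (log2 fold change 5.38 ± 0.20), Mmp13 2.62-fold and Ctsk 2.98-fold. Among growth factors, Angptl2 rose from a median of 68.9 CPM (60 to 179.5) to 426 CPM (395 to 542), Igf1 1.99-fold and Vegfc 3.49-fold, while Vegfa fell 2.17-fold, Bmp2 6.72-fold and Tgfb3 2.56-fold. The growth factor list had 6 of 24 tested members higher and 8 lower, 58.3% called against 59.0% of all genes. Of 26 tested collagens 8 fell and 1 rose, against 29.7% and 29.3% of all genes. Of the 26, 34.6% were called, against 59.0% of all genes. Col4a2 went from a median of 51.1 CPM (32 to 108) to 6.72 CPM (4.49 to 15). Col4a1 went from a median of 33 CPM (21.6 to 63.3) to 8.13 CPM (5.11 to 25.4) and Col18a1 from a median of 138 CPM (133 to 208) to 28.6 CPM (27.1 to 36.3). The stromal collagens Col1a1 (adjusted p = 0.76) and Col1a2 (adjusted p = 0.742) were not called, and in summed level all collagens were lower in IL4_IL13 in 6 of 6 replicate numbers. Summed stromal markers also differed widely between libraries of a group, as given above, and fewer stromal cells and less RNA per cell cannot be told apart for these genes.

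Genes of macrophage fusion showed large rises. Ocstamp and Dcstamp, membrane proteins needed for cell fusion, rose from a median of 0.142 CPM (0 to 1.0) to 93.7 CPM (64.2 to 108) and from a median of 2.36 CPM (1.73 to 7.78) to 69.8 CPM (35.2 to 96.8). The vacuolar ATPase subunit Atp6v0d2, also required for fusion, rose from a median of 9.93 CPM (4.72 to 13.3) to 321 CPM (267 to 410.0) with no overlap. Cdh1, the adhesion protein E-cadherin, rose from a median of 0.346 CPM (0.116 to 1.41) to 32 CPM (15.9 to 86.6), with the widest spread among treated libraries of all strongly raised genes (SD 0.84 on the log2 scale). Of 21 tested fusion genes 11 rose, 7 at least 2-fold, and 5 fell, among them Tnfrsf11a (RANK) and Nfatc1 at 1.83- and 1.57-fold, both part of the osteoclast route. Trem2 was not called (adjusted p = 0.435). The log2 fold change of Ocstamp was 7.98, and 8.75 without Control replicate 1. Integrin chains moved both ways. Itgax, the CD11c chain, rose from a median of 9.55 CPM (6.64 to 16) to 1810.4 CPM (1244 to 2057), Itgb3 from a median of 7.31 CPM (4.35 to 9.69) to 132 CPM (119 to 141), and Itgb2, the partner chain of Itgax, 2.48-fold. Itga6, Itga9 and Itga4 fell 5.19-, 5.44- and 2.64-fold, with no overlap for any of the 3.

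Interferon-stimulated genes fell almost throughout: 45 of 47 tested members fell, 37 at least 2-fold, none rose, and the median log2 fold change was -1.75 against -0.0024 for all genes. The share of lower calls, 45 of 47, stands beside 29.7% of all genes. In 38 of these genes all treated libraries lay below all controls, against 14.2% of all genes. Ifit3b fell from a median of 8.14 CPM (1.66 to 12) to 0.175 CPM (0.0661 to 0.297), Ifit3 from a median of 35.4 CPM (9.89 to 63.9) to 1.49 CPM (0.862 to 1.7), and Ifit1 from a median of 32.5 CPM (13.4 to 56.6) to 1.59 CPM (0.991 to 2.36); these antiviral RNA-binding proteins are near-identical in part, so reads may be split among them. Ly6a, a surface antigen raised by interferon, fell from a median of 131 CPM (112 to 209) to 5.59 CPM (3.17 to 9.56). Slfn2 and Usp18 were the members not called (adjusted p = 0.0613 and 0.0874), and both passed with the block, Slfn2 lower and Usp18 higher (adjusted p = 0.0197 and 0.00451); Slfn2 also passed without Control replicate 1 or IL4_IL13 replicate 5, and Usp18 without Control replicate 2. The summed level of the list was 3127 to 6146 CPM in Control and 1542 to 2056 CPM in IL4_IL13, and Control replicate 1, at 3127 CPM, was the lowest control. Interferon-inducible GTPases, some of which attack vacuoles that hold microbes, went the same way, with 13 of 15 lower and none higher. Mx2 fell 7.49-fold and Gbp9 5.07-fold. Gbp2 was not called (adjusted p = 0.0578) unless blocked (adjusted p = 0.0265) or without Control replicate 1 or IL4_IL13 replicate 5.

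The interferon-response motif GAAANNGAAA, searched on both strands in the same promoter windows, was in 20 of 41 windows of the interferon list (48.8%) and in 3.28% of all windows. It was in 15.2% of windows of genes at least 4-fold lower and 4.52% of those of genes at least 4-fold higher. It can overlap the STAT palindromes. Socs1, which rose, held the interferon-response motif too, and Irf7, which fell, had no match. These stretches show the motif in capitals, as printed on the gene's strand, in 4 genes with large falls.
Ifit1, chr19:34640760-34640819, plus strand: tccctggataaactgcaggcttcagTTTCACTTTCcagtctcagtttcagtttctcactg
Ifit3, chr19:34583348-34583407, plus strand: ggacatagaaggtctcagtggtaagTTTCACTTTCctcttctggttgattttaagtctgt
Ifit3b, chr19:34607744-34607803, plus strand: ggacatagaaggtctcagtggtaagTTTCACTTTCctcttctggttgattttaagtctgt
Cxcl10, chr5:92349068-92349127, minus strand: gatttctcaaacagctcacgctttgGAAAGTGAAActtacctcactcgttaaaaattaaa
The matches began 104, 156, 188 and 213 bases before the start, and the stretches of Ifit3 and Ifit3b are identical. These 4 genes fell 20.7-, 26.7-, 40.4- and 34-fold.

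**Figure D3:**
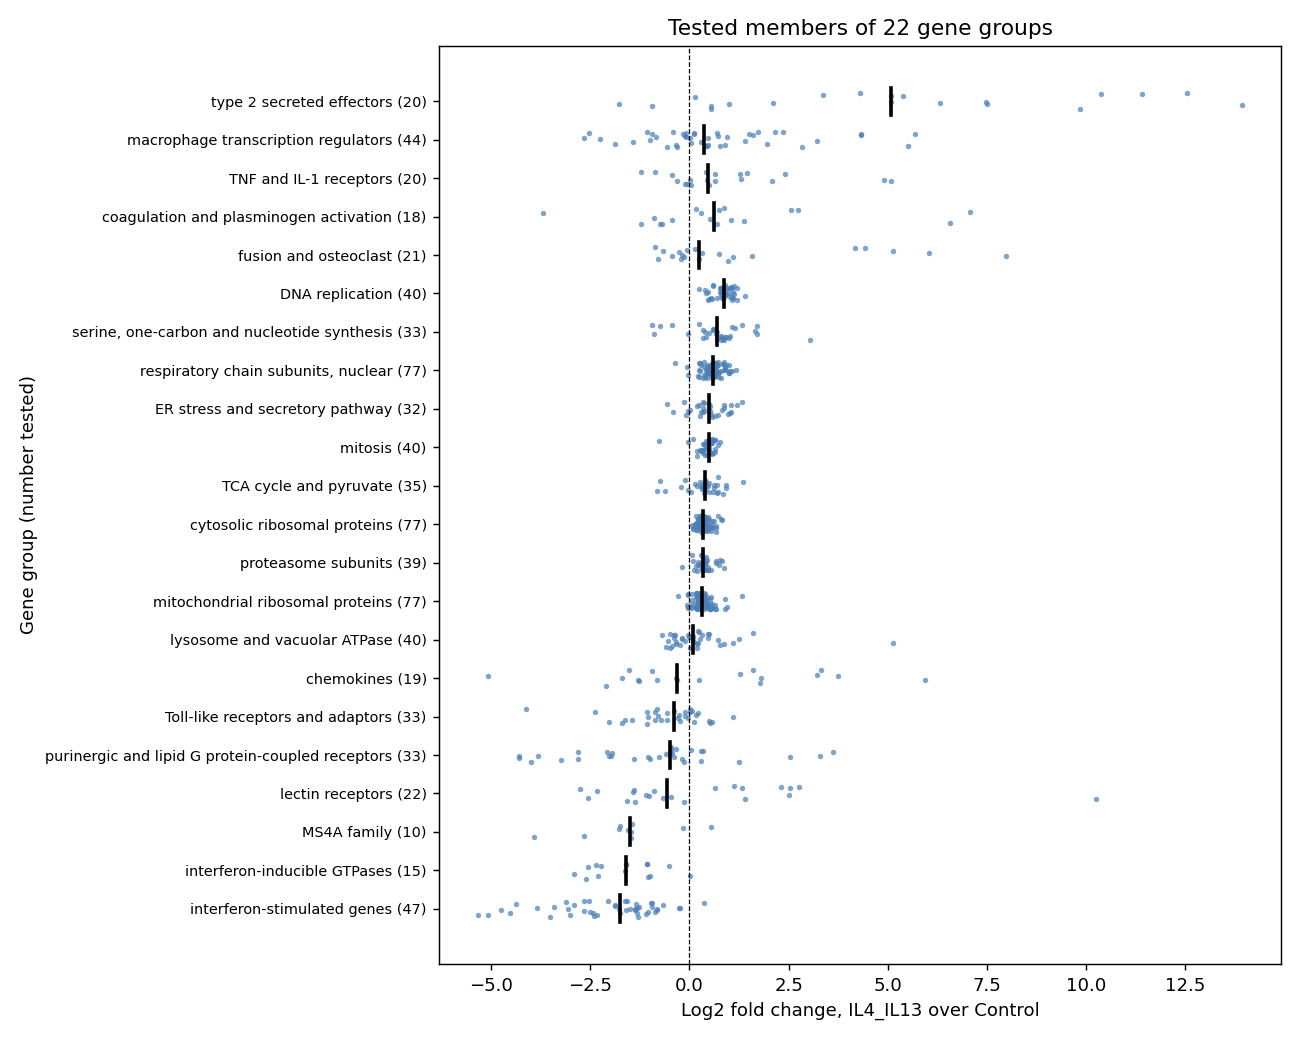
Log2 fold change of IL4_IL13 over Control (horizontal axis) for every tested member of 22 gene groups (vertical axis, with the number tested); points are genes, black bars the medians, and the dashed line marks no change. The effector median lies at 5.08 and the interferon-stimulated median at -1.75, while the ribosomal, proteasome and respiratory chain groups form tight clusters above 0.

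Of 33 tested Toll-like receptor and adaptor genes 20 fell and 7 rose, 9 and 1 of them at least 2-fold. Tlr2, the lipopeptide receptor, fell from a median of 232 CPM (134 to 249.6) to 41.7 CPM (30.6 to 49.9), Cd14, its lipopolysaccharide-binding partner, from a median of 497 CPM (325 to 539) to 117 CPM (103 to 132), and the DNA sensor Tlr9 3.26-fold. Tlr5, the flagellin receptor, also fell (log2 fold change -4.11, and -4.74 without IL4_IL13 replicate 3). Tlr4, the lipopolysaccharide receptor, rose against this trend from a median of 161 CPM (137 to 183) to 242 CPM (197 to 261), and Tlr8 was not called (adjusted p = 0.721). Among NF-kB regulators 16 of 26 fell and 6 rose: Nfkbiz, an atypical inhibitor and coactivator, fell from a median of 77.7 CPM (29.8 to 84.2) to 5.77 CPM (5.05 to 6.87), Relb and Birc3 2.08- and 1.99-fold, and Tnip3 rose 2.26-fold. Nlrp3, the sensor of the best-known inflammasome, fell from a median of 131 CPM (126 to 139) to 32 CPM (27.4 to 40.3), and Nlrc4 2.46-fold, while the adaptor Pycard rose 1.71-fold and Gsdmd was not called (adjusted p = 0.899). Il1b fell, with overlapping groups (its log2 fold change of -3.10 became -3.91 without IL4_IL13 replicate 1), and Tnf fell from a median of 14.5 CPM (11.4 to 30.5) to 4.02 CPM (3.61 to 6.39). Of 19 tested inflammatory cytokines 11 fell and 2 rose, Il1rn and Tnfsf12, at 1.46- and 1.2-fold; the call of Il1rn was lost without any of Control replicates 2 to 6 and IL4_IL13 replicates 1, 2, 4, 5 and 6.

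Genes of antigen presentation by class II molecules changed both ways. Cd74, the invariant chain, rose from a median of 478 CPM (112 to 747) to 2247 CPM (1294 to 3323) and H2-DMa, which loads peptides onto class II, from a median of 22.8 CPM (9.49 to 28.7) to 101 CPM (61.4 to 129). Cd74 was 1 of the strongly raised genes with the widest spread over treated libraries (SD 0.53 on the log2 scale). H2-Ob and H2-Oa, which together form the brake on H2-DM, fell 6.68- and 3.65-fold. Pdcd1lg2 (PD-L2), a checkpoint ligand tied to IL-4, went from 7 counts in Control to 1298 in IL4_IL13, a ratio of 195 (95% counting interval 94.6 to 486.9). Cd274 (PD-L1) rose from a median of 8.05 CPM (6.78 to 8.82) to 41.2 CPM (40 to 49.7). The costimulatory ligands Icosl and Cd86 fell from a median of 63.2 CPM (61 to 70.8) to 8.49 CPM (6.81 to 11.3) and from a median of 14.7 CPM (7.23 to 16.6) to 3.62 CPM (2.4 to 4.07). In all, 11 of 26 tested genes rose and 9 fell. Class I genes changed little: 3 of 20 rose, 8 fell and 1 changed at least 2-fold, and B2m was not called (adjusted p = 0.758). Without Control replicate 1, 13 class I genes fell in place of 8. H2 genes have close relatives, and their reads may be shared.

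Arginine, polyamine and creatine genes were led by 3 large rises. Besides Arg1, the arginine transporter Slc7a2 rose from a median of 29.8 CPM (23.6 to 37.7) to 384 CPM (356 to 525) and Gatm, which uses arginine to make the creatine precursor, from a median of 50 CPM (38.4 to 87.8) to 549.9 CPM (444 to 693). Eif5a, the factor that carries the polyamine-derived hypusine, rose 2.7-fold. Polyamine-degrading Smox and the transporter Slc7a7 fell 2.62- and 2.24-fold, and Sat1 was not called (adjusted p = 0.916). Of 28 tested genes 12 rose and 5 fell. Their levels in Control replicate 1 exceeded those of its fellow controls, by 0.72 on the log2 scale at the median, and without it 18 rose and 6 fell.

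Mitochondrial and translational genes rose by small, even amounts. Of 77 tested nuclear subunits of the respiratory chain 73 rose, against 29.3% of all genes, with a median log2 fold change of 0.60; in 54 of them the groups did not overlap. The largest rises were those of Atp5g3 and Atp5b, at 2.27- and 2.1-fold, and Cox7a2l and Ndufa6 were among the 3 not called (adjusted p = 0.72 and 0.757). Their summed level was 4210.1 to 5349 CPM in Control and 6527 to 7805 CPM in IL4_IL13, so the groups did not overlap. Mitochondrially coded subunits followed less evenly, with 7 of 11 higher; mt-Nd1 rose 1.59-fold and mt-Co1 was not called (adjusted p = 0.0889) except without IL4_IL13 replicate 6. Mitochondrial ribosomal proteins rose in 60 of 77 tested genes (median 0.31), cytosolic ribosomal proteins in 70 of 77 (median 0.34) and proteasome subunits in 33 of 39 (median 0.34). None of the ribosomal or proteasome genes named here passed 2-fold except Mrps28, at 2.52-fold.

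In the TCA cycle 26 of 35 tested genes rose and 2 fell, with Idh3a at 2.54-fold and Mdh2 at 1.9-fold. Fatty acid genes rose in 19 of 37 and fell in 5. Lpl, the lipase that frees fatty acids from lipoproteins, rose from a median of 1583 CPM (1326 to 1722) to 4897 CPM (4579 to 5409.9), Fabp4, a fatty acid carrier, from a median of 2.87 CPM (2.17 to 4.02) to 24.1 CPM (16.8 to 36.4), while Cpt1a, the gate to mitochondrial oxidation, was not called (adjusted p = 0.539). Cholesterol genes rose in 16 of 32 and fell in 3, against 29.3% and 29.7% of all genes. Without Control replicate 1, 25 rose and 4 fell, while 4741 of all 13344 genes tested rose. The summed level of the list went down, from a median of 7731 CPM to 5148 CPM, with overlapping groups. The exporters parted: Abcg1 rose from a median of 166 CPM (39 to 214) to 449 CPM (309 to 595), and Abca1 fell from a median of 403 CPM (116 to 467) to 89.1 CPM (51.3 to 128), as did Apoe from a median of 4285 CPM (980.3 to 4619.6) to 1165 CPM (573 to 1456), the last with overlapping groups. Scd2, a fatty acid desaturase, rose 3.56-fold. In glycolysis the phosphofructokinase isoforms went apart, with Pfkp 3.71-fold higher and Pfkl and Pfkm 1.72- and 1.54-fold lower, the monocarboxylate transporter Slc16a1 rose 3.11-fold, and Slc2a3, a glucose transporter, fell 2.27-fold. Pkm did not pass (adjusted p = 0.559).

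Serine, one-carbon and nucleotide synthesis genes rose in 22 of 33, with a median log2 fold change of 0.70. In 2 of the 33 all treated libraries lay above all controls, against 12.5% of all genes. Their summed level was 2459 CPM in Control replicate 1, within the 1662 to 2716 CPM of IL4_IL13. Phgdh, the first enzyme of serine synthesis, went from a median of 3.7 CPM (2.87 to 15.6) to 43.6 CPM (30.2 to 68), and its fold change was 3.04 on the log2 scale, and 3.71 without Control replicate 1. Psat1 and Mthfd1l rose by 1.71 and 1.66 on the same scale (2.36 without Control replicate 1 and 2.29 without Control replicate 1), and Atic, a purine synthesis enzyme, rose 3.25-fold. Control replicate 1 lay above the other controls in this list by a median log2 difference of 1.41, and without it 28 genes rose. Hexosamine and N-glycan precursor genes did not move as a group: 10 of 30 rose and 4 fell, none by 2-fold, or 16 and 5 without Control replicate 1. Gfpt1, the entry enzyme of the hexosamine pathway, fell 1.56-fold and Uap1 1.36-fold, while Nans, which makes sialic acid, rose 1.98-fold.

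Of 22 tested iron and heme genes 9 rose and 8 fell. Tfrc, the transferrin receptor that brings iron in, rose from a median of 29 CPM (25.9 to 107) to 192 CPM (164 to 205), and Slc40a1, ferroportin, the exporter of cellular iron, fell from a median of 173 CPM (60.5 to 215) to 32.6 CPM (20.5 to 45.5). The groups did not overlap for either. Steap3, an iron reductase, and Alas1, the first enzyme of heme synthesis, rose 2.09- and 2.62-fold, and Fth1, the ferritin heavy chain, fell 1.23-fold; Hmox1 was not called (adjusted p = 0.342). The phagocyte oxidase subunits Cybb and Ncf1 fell 2.1- and 1.63-fold. Among antioxidants Sod3 rose 5.93-fold and Sod1 fell 1.51-fold. The cystine carrier Slc7a11 rose by 1.74 on the log2 scale (2.60 without Control replicate 1).

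The secretory pathway rose in 26 of 32 tested genes, with a median of 0.50; Sdf2l1 and Pdia4, helpers of protein folding, rose 2.31- and 2.07-fold. The stress sensors Ern1 and Atf6 fell 1.47- and 1.33-fold, and Xbp1 was not called (adjusted p = 0.895). Lysosomal genes were mixed, with 16 of 40 higher and 13 lower. Psap, the precursor of the sphingolipid activator proteins, rose from a median of 4773 CPM (3483 to 5452) to 11009 CPM (8427 to 14086), Atp6v0a1, a subunit of the proton pump, 3.05-fold, and Ctsd fell 1.4-fold. Lyz2, lysozyme M of macrophages, fell from a median of 12454 CPM (7229 to 14639) to 2827 CPM (2398 to 3409.9).

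DNA replication genes rose in 35 of 40 tested members, 13 at least 2-fold, and none fell (median 0.86). The groups overlapped in all 40. The summed level of the list in Control replicate 1 was 4243 CPM against 894 to 1522 CPM in the other controls and 2293 to 4256 CPM in IL4_IL13. Pcna, the sliding clamp of the replication fork, ran from a median of 83 CPM (66.6 to 265) to 298 CPM (261 to 328) (log2 fold change 1.41 ± 0.26). Without Control replicate 1 all 40 were higher with a median of 1.32, and with the replicate block 40 were higher as well. Mitosis genes rose in 17 of 40 and 1 (Pttg1) fell. With the block 35 rose, and without Control replicate 1 37 rose, with a median of 0.74 in place of 0.49. Mki67, the proliferation marker, ran from a median of 455 CPM (304 to 1004) to 735 CPM (539 to 1046) and did not pass (adjusted p = 0.0977), though it did with the block (adjusted p = 3.64e-04) and without Control replicate 1. Among G1 regulators 8 of 29 rose and 5 fell, or 16 and 7 with the block and 17 and 8 without Control replicate 1. Ccne1, the cyclin of S phase entry, rose 2.46-fold (log2 fold change 2.27 without Control replicate 1), Ccnd1 was not called (adjusted p = 0.489, and 0.0149 with the block; it was also called without Control replicate 1), and Ccnd2 fell (log2 fold change -1.59, and -0.60 without Control replicate 1). The inhibitor Cdkn1b fell 1.68-fold. Whether these genes changed in level per cell or in the number of dividing cells cannot be told apart in bulk RNA.

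**Figure D4:**
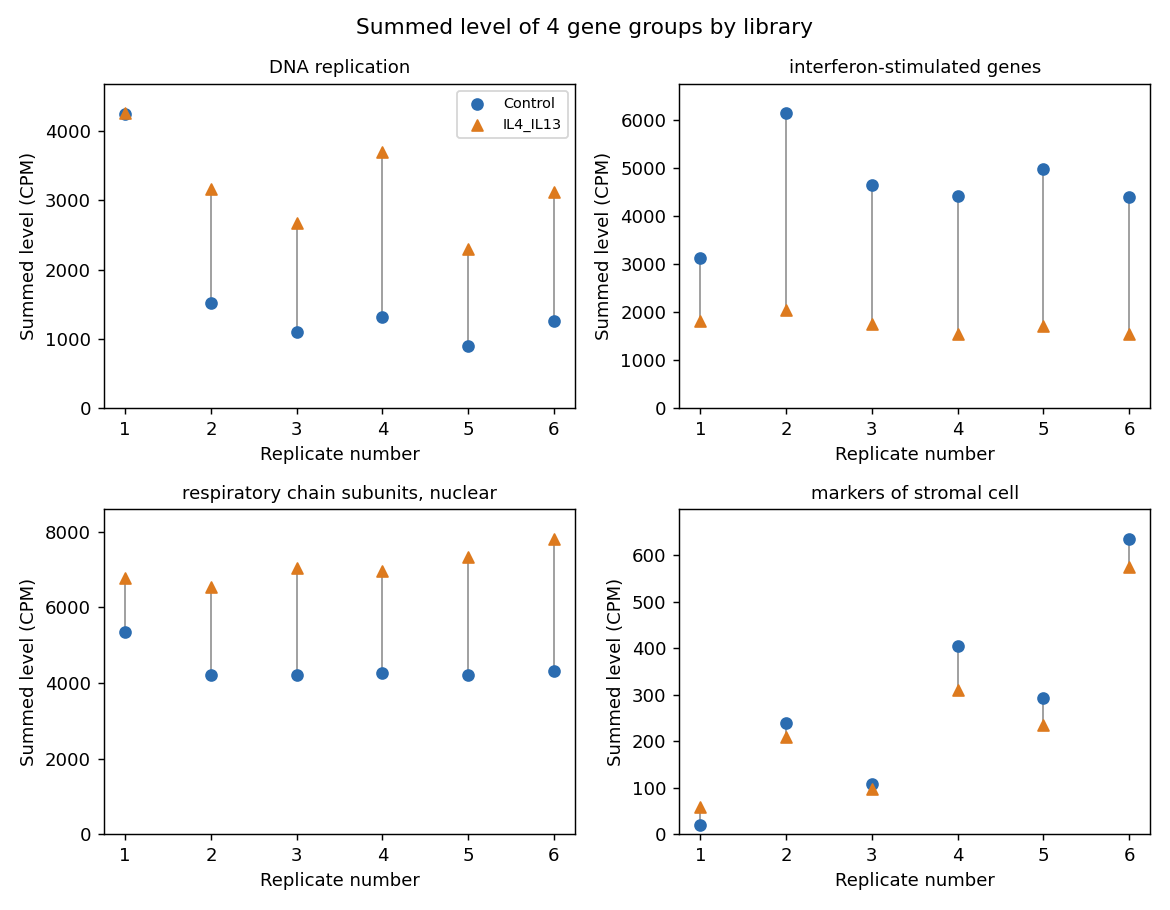
Summed level in CPM (vertical axes, from 0) of 4 gene groups in each library, Control in blue and IL4_IL13 in orange, joined by replicate number (horizontal axis 1 to 6). For DNA replication, Control replicate 1 (4243 CPM) sits level with its treated partner (4256 CPM) while the other 5 controls lie below theirs; interferon-stimulated genes are lower in IL4_IL13 in 6 of 6 numbers, respiratory chain genes higher in 6 of 6, and stromal markers differ more between numbers than between groups.

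Gene families taken by name pattern differed in direction. Zinc finger genes leaned down, with 165 of 380 tested lower, 35 higher and 8 in each direction past 2-fold (median -0.19). Without Control replicate 1, 192 were lower and 48 higher. ABC transporters fell in 20 of 34 and rose in 8. Abcc2, a conjugate exporter, went from 156 counts in Control to 9, a ratio of 16.5 (95% counting interval 8.45 to 36.6); its log2 fold change was -3.93, and -4.76 without IL4_IL13 replicate 3. Homeobox genes gave 6 rises and 12 falls among 25. Msx3 went from 3 counts to 2510, and by 9.41 on the log2 scale (10.30 without Control replicate 2), Dlx3 from 10 to 318 counts, and Dlx2 fell 5.36-fold. Tuba8, an alpha tubulin of testis and muscle, went from 1 count to 1100, a ratio of 1159 (95% counting interval 208 to 45820). Its log2 fold change was 9.31, and 10.45 without Control replicate 1, which held the only control count. Long non-coding genes fell in 274 and rose in 114 of 956 tested, and pseudogenes rose in 94 and fell in 36 of 344, against 3636 and 3586 of 11785 protein-coding genes.

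Genes near silent in every control were few: 10 genes lay under 0.5 CPM in each Control library and at 10 CPM or more in each IL4_IL13 library. They were Retnla, Rnase2a, Chil3, Ear2, Gm8113, Il31ra, St8sia1, Msx3, F7 and Ccdc88c. St8sia1, a sialyltransferase that makes the ganglioside GD3, rose from a median of 0.241 CPM (0.118 to 0.391) to 25 CPM (17.6 to 29.5), and Ccdc88c, a regulator of Wnt and G protein signalling, from a median of 0.248 CPM (0.058 to 0.496) to 10.6 CPM (10 to 11.8). The fits of Retnla, Il31ra and Msx3 rest on few control counts, at 15.89 without Control replicate 5, 10.59 without Control replicate 5 and 10.30 without Control replicate 2. Gm8113 is a predicted gene on chromosome 14. No gene made the reverse change. Hr, the hairless corepressor, and Tmem26, a membrane protein, missed that definition at the control end, rising from a median of 0.597 CPM (0.433 to 0.895) to 126 CPM (85.5 to 144) and from a median of 1.34 CPM (0.839 to 4.52) to 137 CPM (126 to 148).

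A different view is the mass of transcripts, in CPM and not per length, so that long genes weigh more. The 12 genes with the largest gains held 1.3% to 1.69% of all counts in the controls and 3.53% to 4.76% in the treated libraries. Besides Psap, Lpl, Mmp12, Cd36, Cd74, Itgax and Retnla they were Lgals3, a galactose-binding lectin, which rose from a median of 1669 CPM (1479 to 1869) to 4321 CPM (3814 to 4932), the scaffold Ahnak, the cathepsin Ctss, the aminopeptidase Anpep (6.61-fold) and Itgb2. The 12 largest losses held 4.29% to 6.39% in Control and 2.51% to 2.91% in IL4_IL13. They were Lyz2, Mpeg1, Apoe, Stab1, Csf1r, Lrp1, Fth1, Gpnmb, Adgre1, Selenop, Ctsd and Itm2b. Mpeg1, the pore-forming protein of macrophage lysosomes, fell from a median of 4818 CPM (2737 to 5459) to 1392 CPM (977 to 1906), the selenium carrier Selenop from a median of 1609 CPM (381 to 1820.0) to 253 CPM (146 to 325), and the macrophage antigen Adgre1 (F4/80) from a median of 2509 CPM (1437 to 2611) to 1178 CPM (1089 to 1212). Csf1r, the receptor for M-CSF, which both groups received, fell from a median of 5596 CPM (3701 to 5771) to 3435 CPM (3047 to 3688). Retnla is the one of these whose fitted value turned on a single library, with 15.89 without Control replicate 5. Genes detected at 1 CPM or more numbered 11949 ± 172 in Control and 11819 ± 119 in IL4_IL13 (SD, n = 6; exact permutation p = 0.164, two-sided, adjusted over 2 tests 0.242). Without Control replicate 1 the exact permutation p for detected genes was 0.0260. The 100 most abundant genes of each library took 20.1% ± 0.730 and 19.6% ± 0.702 of its counts (SD, n = 6; exact permutation p = 0.242, adjusted 0.242), and this share was lower with the cytokines in 6 of 6 numbers (p = 0.0312 by an exact sign-flip permutation, adjusted 0.0625).

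**Figure D5:**
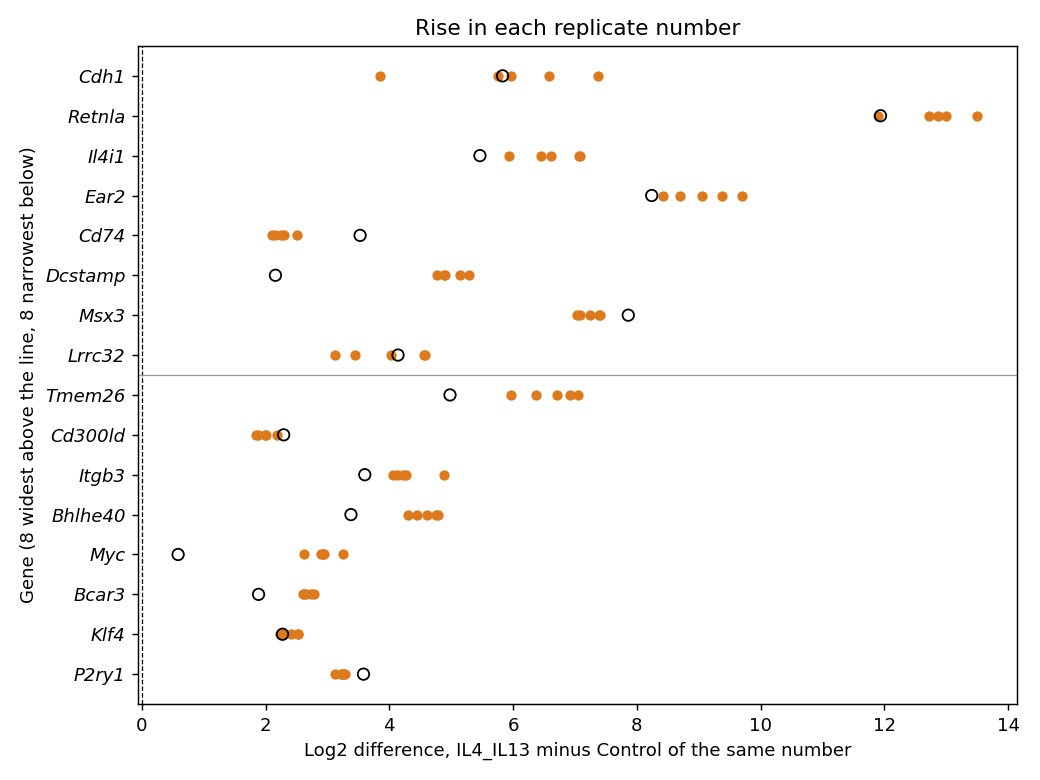
Log2 difference in level between IL4_IL13 and Control libraries of the same replicate number (horizontal axis) for the 8 strongly raised genes with the widest and the 8 with the narrowest spread over treated libraries (vertical axis). Each point is 1 replicate number and open circles mark number 1. The plotted differences also hold the spread of the controls, by which the genes were not ranked. Among treated libraries alone, P2ry1 and Klf4 vary little, while Cdh1 and Retnla vary most.

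Raised genes differed in how alike the 6 treated libraries were. Over 93 genes that rose at least 4-fold to a mean of 20 CPM or more, the SD of log2 CPM between treated libraries had a median of 0.22 and ran from 0.05 to 0.84, against a median of 0.16 for all genes. The tightest were P2ry1, Klf4, Bcar3, Myc, Bhlhe40, Itgb3, Cd300ld and Tmem26. Bhlhe40 stood at 224 to 257 (median 237) CPM with the cytokines, and P2ry1 at 134 to 149 (median 143) CPM. Myc was uneven only among the controls, where replicate 1 lay highest (log2 fold change 2.16, 2.94 without Control replicate 1). The loosest were Cdh1, Retnla, Il4i1, Ear2, Cd74, Dcstamp, Msx3 and Lrrc32. Il4i1, an amino acid oxidase named for its induction by IL-4, rose from a median of 2.89 CPM (2.21 to 4.52) to 306 CPM (134 to 400.2), and Lrrc32, a surface anchor of latent TGF-beta, from a median of 1.44 CPM (0.753 to 3.8) to 27.2 CPM (15.2 to 36.9). Single treated libraries thus differed severalfold in Cdh1 and Retnla and by little in Klf4, although each of these genes was higher in 6 of 6 replicate numbers; among them the fits of Msx3 (10.30 without Control replicate 2) and Retnla (15.89 without Control replicate 5) also moved with 1 control.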

How the data were processed

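Libraries were made from polyadenylated RNA of cultured macrophages with a strand-preserving kit, per the labels' protocols. The deposited values were raw read counts per gene, made by the authors. The submitters' processing notes name STAR 2.5.2b, featureCounts 1.5.1 and RSEM 1.3.0 with mm10 and GRCm38; which annotation, filters or strand setting served the counting is not given in the sources used here. Reads of overlapping or antisense genes may not be separable. Of 48794 features, 48434 matched a symbol in GENCODE M21.

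Counts were tested with edgeR 4.0.16 (quasi-likelihood, robust, TMM, filterByExpr with a minimum count of 10) on all 18 libraries, contrast IL4_IL13 over Control, with Benjamini-Hochberg adjustment over 13177 genes and a threshold of 0.05. Standard errors were approximated by dividing the log2 fold change by the root of F. The script was tested on simulated data. Count intervals are 95%, exact, and cover counting error only. Among the 30 pairs of libraries within the Control and IL4_IL13 groups none agreed within sampling noise (lowest chi-square per degree of freedom 4.05); other pairs were not compared. Same-numbered libraries deviated together (correlations 0.131 to 0.671, all over 0.1). They were each other's closest match across the groups in 5 of 6 numbers, but not in number 4. The numbers are in the labels, which do not say what they share. Alternatives were other normalizations, filters, DESeq2 1.42.0, limma 3.58.1, the replicate block, the 12 libraries alone and leaving out each library. Genes were named by a rule on size, list membership, abundance and spread. The members, lists and rule were chosen with earlier results of these data known.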

Additional observations from a re-analysis of the deposited data

Results flagged for a closer look

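A library was marked for a gene where it lay so far above or below the other 5 of its group that the gap to its neighbour, as a share of the group's range, passed Dixon's critical value at the 95% level. Chance alone marks about 1 in 20 groups where values are normally distributed, which CPM values need not be. A group with a single count, as in Control for Tuba8 and Ccl17, is always marked. Of 522 sets of 6 values tested, 117 were marked, and 93 of these marks fell on Control replicate 1, the library that stood apart in the report. All values are levels in CPM in the library named, and the part of that library's other differences in them was not tested.

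For Alas1 (62.8), Angptl2 (180), Atic (112), Atp5b (603), Atp5g3 (108), Bcar3 (31.2), Bhlhe40 (22.1), C5ar1 (724), Ccl2 (13), Ccl7 (1.51), Ccnd1 (757), Ccnd2 (86.3), Ccne1 (28.6) and Cd36 (770), Control replicate 1 lay above the other libraries of its group. The level of Clec4e (79.6), Col18a1 (208), Dcstamp (7.78), Eif5a (421), Gatm (87.8), Gfpt1 (58), Hmox1 (1137), Idh3a (62.4), Il17ra (125), Il1rn (9.59), Itgb2 (766), Mdh2 (140), Mki67 (1004) and Mrps28 (9.64) stood above the rest of the group in Control replicate 1. It also lay above them for Msr1 (489), Mthfd1l (39.1), Myc (59.5), Nans (74.3), Pcna (265), Pdia4 (140), Pf4 (92.7), Pfkl (103), Pfkp (157), Phgdh (15.6), Pkm (3217), Plau (531), Psat1 (72.1) and Sdf2l1 (92.9). For Slc16a1 (27.4), Slc7a11 (12.9), Steap3 (63.7), Tfrc (107), Tmem26 (4.52), Tnf (30.5), Tnfrsf11a (268), Tnfrsf1a (205), Tuba8 (0.0502) and Vegfc (3.31), Control replicate 1 lay above the other libraries of its group. The level of Abcg1 (39), Adgre1 (1437), Birc3 (39.4), Cd14 (325), Cd200r1 (41.1), Cd300ld (97.8), Cd86 (7.23), Cd93 (635), Cdkn1b (66.9), Cox7a2l (67.9), Cpt1a (214), Csf1r (3701), Cxcl16 (278) and Cxcr4 (148) stood below the rest of the group in Control replicate 1. It also lay below them for Cybb (603), Fcgr1 (88.6), Fcgr3 (191), Fcgr4 (5.07), Gsdmd (71.7), Hpgd (211), Hpgds (290), Ifnar2 (129), Igf1 (642), Irs2 (21.4), Itga4 (244), Itm2b (1029), Kcnj10 (17.1) and Ltb4r1 (0.402). For Maf (416), Mertk (54.2), Mpeg1 (2737), Ms4a6b (25.1), Ncf1 (641), Pfkm (20.3), Pilrb2 (1.71), Sat1 (153), Slfn2 (146), Tlr8 (165), Tlr9 (34.6), Trem2 (683) and Zeb2 (432), Control replicate 1 lay below the other libraries of its group.

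For Sod1 (167), Control replicate 2 lay below the other libraries of its group.

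For Ccl17 (0.058) and Pdcd1lg2 (0.174), Control replicate 4 lay above the other libraries of its group.

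For Il31ra (0.276) and Retnla (0.331), Control replicate 5 lay above the other libraries of its group.

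For Ctsk (4.87), H2-Oa (1.29) and Lrrc32 (3.8), Control replicate 6 lay above the other libraries of its group.

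For Ccl2 (22.4), Ccl7 (12.8), Clec4e (19), Cxcl2 (5), Hmox1 (603), Il1b (1.73), Socs3 (4.76) and Tnf (6.39), IL4_IL13 replicate 1 lay above the other libraries of its group. The level of Hpgd (73) stood below the rest of the group in IL4_IL13 replicate 1.

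For Ccdc88c (11.8) and Gbp2 (20), IL4_IL13 replicate 5 lay above the other libraries of its group.

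For Col4a1 (25.4) and Ltb4r1 (16.6), IL4_IL13 replicate 6 lay above the other libraries of its group. The level of Cpt1a (201), Nfatc1 (62) and Zeb2 (543) stood below the rest of the group in IL4_IL13 replicate 6.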

How the results depend on the processing

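Of 259 genes named with a value, 245 kept their side of the threshold under all alternatives that gave a value. Those of them that were called also kept their direction. A change of sign in a gene called in neither fit was not counted. Plau, not called with all libraries, was called higher without Control replicate 1 (log2 fold change 0.80; -1.08 to 0.80 without single libraries) and without the libraries numbered 1 (0.65), a setting chosen after seeing the data; the cause was not tested. Genes called numbered 7774, 7796 with DESeq2's size factors, 7848 with library totals, 6978 with no filter, 6717 with the stricter filter, 7899 with DESeq2 and 7926 with limma voom. With the 12 compared libraries alone, 12831 genes were tested and 7033 called, or 8337 called with the block. Leaving out single libraries gave 7179 to 9081. The stricter filter, which tests fewer genes (10185), left 498 genes at least 2-fold higher and 526 lower, against 749 and 882. With no filter 56.1% of called genes were higher, against 49.7%. With the replicate block 8632 genes were called, and among named genes the block changed 8 calls, those given in the report, and no other. Detected genes differed by -129.5 (-190.1 to -90.9 without single libraries; -190.1, exact permutation p = 0.0260, without Control replicate 1). The share of the 100 most abundant genes differed by -0.51 percentage points (-0.76 to -0.34 without single libraries), with an exact sign-flip permutation p of 0.0312 for the replicate block, and that of the 20 most abundant by -0.85 (exact permutation p = 0.0195). Fold changes of genes with few control counts, such as Retnla, are limited by depth.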
